A study of Mus musculus with 6 samples.

Results

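The miR-290 to miR-295 cluster was read in small RNA libraries of primary mouse peritubular myoid cells, the contractile cells around the seminiferous tubules of the testis. All table rows named miR-290a, miR-290b, miR-291a, miR-291b, miR-292a, miR-292b, miR-293, miR-294 or miR-295, on either arm, were taken. This gave 17 of the 1573 rows of known mouse miRNAs. The ET1 group held 3 libraries of C57BL/6J cells exposed to 50 nM endothelin-1 (ET1), a peptide that makes smooth muscle contract, for 5 min at 37 °C. The untreated group held 3 libraries of C57BL/6J cells that got no ET1. Cells of both groups were primary and had been grown in DMEM/F12 with 10% fetal bovine serum, and the labels name no separate cultures or animals behind the libraries. The p-values below thus speak to the variation among 6 libraries, part or all of which may be technical.

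The cluster is the main miRNA locus of mouse embryonic stem cells, where its hairpins are cut from a shared primary transcript. Each hairpin can give a mature miRNA from its 5p arm and from its 3p arm, and the arm loaded into Argonaute chooses targets mainly through its seed, bases 2 to 8. The 3p arms with an AAGUGC seed core are known from mouse embryonic stem cells for promoting passage from G1 to S phase and self-renewal, and the locus is also active in early embryos and primordial germ cells. It is not known as a product of mature smooth muscle.

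In RefSeq (GRCm38.p6) the 9 hairpins of these names lie on chromosome 7 between positions 3218626 and 3220841, a span of 2216 bases, with 7 on the plus strand and 2, Mir290b and Mir292b, on the minus strand opposite Mir290a and Mir292. In GENCODE M21, of the same build, all but Mir290a and Mir290b lie inside the last exon of Nlrp12 (3218784 to 3222560), a minus-strand gene of the NLR family of innate immune regulators. They fall in its untranslated part (3218784 to 3222475). Mir292b is on the strand of Nlrp12, and the mature miR-292b-5p sequence is found whole in the Nlrp12 transcript, so its tags could not be assigned to the hairpin alone. The other mature sequences at hand were found whole, in the sense direction, in no GENCODE transcript but that of their own hairpin. RefSeq gave a mature sequence for 16 of the 17 rows, 22 to 24 bases long.

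The 3p arms are shown first, because the seed core that marks the cluster is on them and because they ran from 0 tags to the 882 of miR-292a-3p. Seeds are in capitals, sequences run 5′ to 3′, and the mature sequences are RefSeq's.
mmu-miR-291a-3p: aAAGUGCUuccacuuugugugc
mmu-miR-294-3p: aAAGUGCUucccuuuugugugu
mmu-miR-295-3p: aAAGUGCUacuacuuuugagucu
mmu-miR-290a-3p: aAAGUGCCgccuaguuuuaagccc
mmu-miR-291b-3p: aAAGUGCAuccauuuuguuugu
mmu-miR-293-3p: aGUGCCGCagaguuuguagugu
The first 3 share the seed AAGUGCU. miR-290a-3p and miR-291b-3p differ from it in the last seed base, and miR-293-3p has the seed GUGCCGC. mmu-miR-292a-3p is named only.

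The 5p arms are shown because 265 tags of the cluster belonged to a pair that can hardly be told apart.
mmu-miR-291a-5p: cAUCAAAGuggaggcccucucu
mmu-miR-291b-5p: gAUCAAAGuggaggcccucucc
mmu-miR-292a-5p: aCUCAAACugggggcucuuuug
mmu-miR-290a-5p: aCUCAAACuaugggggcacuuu
miR-291a-5p and miR-291b-5p share the seed AUCAAAG and a run of 20 identical bases, and differ by C1G and U22C, counted from 1 at the 5′ end with the base of miR-291a-5p first. A tag short of both ends would fit either, so their split is uncertain and their sum is given as well. miR-290a-5p, miR-292a-5p and miR-293-5p share the seed CUCAAAC.

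ET1 libraries held 18127265 to 19493731 tags and untreated libraries 18972157 to 20895432, of which known miRNAs made up 22.6% to 25.5% in ET1 and 30.1% to 45.6% in untreated libraries. Fragments of rRNA made up 7.12% to 11.0% of the ET1 tags against 3.22% to 5.63% of the untreated tags. Both shares therefore differed between the groups without overlap, and their part in the results on the cluster was not tested. The label of the cells was checked against smooth muscle miRNAs: miR-143-3p had a level of 11789 ± 1506 in ET1 libraries against 22501 ± 4132 in untreated libraries, in CPM, that is tags scaled to 1000000 known miRNA tags with TMM factors applied (SD, n = 3 each). It was the most abundant of 5 smooth muscle miRNAs listed. These summed to 13055 to 15600 CPM in ET1 libraries against 20628 to 27964 CPM in untreated libraries. None was called in the edgeR test below, beside 1.79% of all miRNAs tested (0.487% lower in ET1). miR-145a-5p averaged 2431 ± 296 CPM in ET1 libraries against 2618 ± 506 CPM in untreated libraries (SD, n = 3 each), and its groups overlapped. The others listed, miR-143-3p, miR-133a-3p, miR-145a-3p and miR-1a-3p, were lower in ET1 libraries without overlap. The share of all tested miRNAs lower without overlap is not given here. The 5 had a median log2 fold change of −1.26 and none was above 0, beside 50.5% of all tested miRNAs above 0. Markers of other cells were present too, and the germ cell list summed higher than the smooth muscle list in every library. The 13 germ cell and spermatogenic miRNAs listed, all with a tag, summed to 40137 to 76646 CPM in ET1 libraries against 36449 to 73825 CPM in untreated libraries, mostly miR-470-5p. The 5 epithelial miRNAs summed to 75.1 to 129 CPM in ET1 libraries against 110 to 343 CPM in untreated libraries, and the 4 of blood to 75.7 to 336 CPM in ET1 libraries against 323 to 953 CPM in untreated libraries, with miR-144-3p at 0 in all untreated ones. Of the blood list, miR-150-5p averaged 24.7 ± 4.59 CPM in ET1 libraries against 270 ± 51.2 CPM in untreated libraries (SD, n = 3 each). It was called lower in ET1 (log2 fold change −3.45, edgeR adjusted p = 0.00036), beside 0.487% of all miRNAs tested. The groups of miR-451a and miR-223-3p overlapped. The 2 endothelial miR-126a arms summed to 114 to 163 CPM in ET1 libraries against 1107 to 1883 CPM in untreated libraries. miR-126a-3p was called lower in ET1 (log2 fold change −3.61, edgeR adjusted p = 0.00019), and miR-126a-5p was not called (−2.01, edgeR adjusted p = 0.079). The 2 gonadal miR-202 arms summed to 621 to 1905 CPM in ET1 libraries against 918 to 1389 CPM in untreated libraries. Their part in the level of the cluster was not tested. Since these are bulk libraries, fewer cells that make the cluster and less of it per cell cannot be told apart.

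The cluster was present at a low level in all 6 libraries. It held 1078 tags in the ET1 libraries (213 to 498 each) against 797 in the untreated libraries (166 to 440 each), 1875 in all. Per 1000000 known miRNA tags, with no further scaling, these were 79.3, 114 and 44.1 tags in ET1 libraries against 20.5, 50.9 and 30.6 in untreated libraries, with means of 79.03 ± 34.8 in ET1 and 33.98 ± 15.5 in untreated libraries (SD, n = 3 each). ET1 library 3 lay below untreated library 2, so the groups overlapped, and a sum over members was not tested. Of all tags, miRNA or not, the cluster held 18.9 ± 7.45 per 1000000 in ET1 and 13.5 ± 8.46 per 1000000 in untreated libraries, a ratio of 1.41 in place of 2.33.

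Of the 17 arms, 8 had more than 10 tags over the 6 libraries, 6 had 1 to 10 tags and 3 had none. miR-292a-3p and miR-293-3p together made up 69.5% of the tags of the cluster. miR-292a-3p was the most abundant, and 52.3% of the 616 miRNAs that passed the expression filter had a lower mean CPM. The order of levels was stable at the top: miR-292a-3p had more tags than miR-293-3p, and miR-293-3p more than miR-291b-5p, in 6 of 6 libraries. Below these, several neighbours in the order changed places between libraries or groups. miR-291b-5p had more tags than miR-292b-5p in all 3 ET1 libraries and fewer in all 3 untreated libraries, and miR-292b-5p had more than miR-294-3p in 4 of 6. At the lower end miR-291a-5p and miR-294-3p each had more tags than miR-295-3p in 6 of 6.

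**Figure D1:**
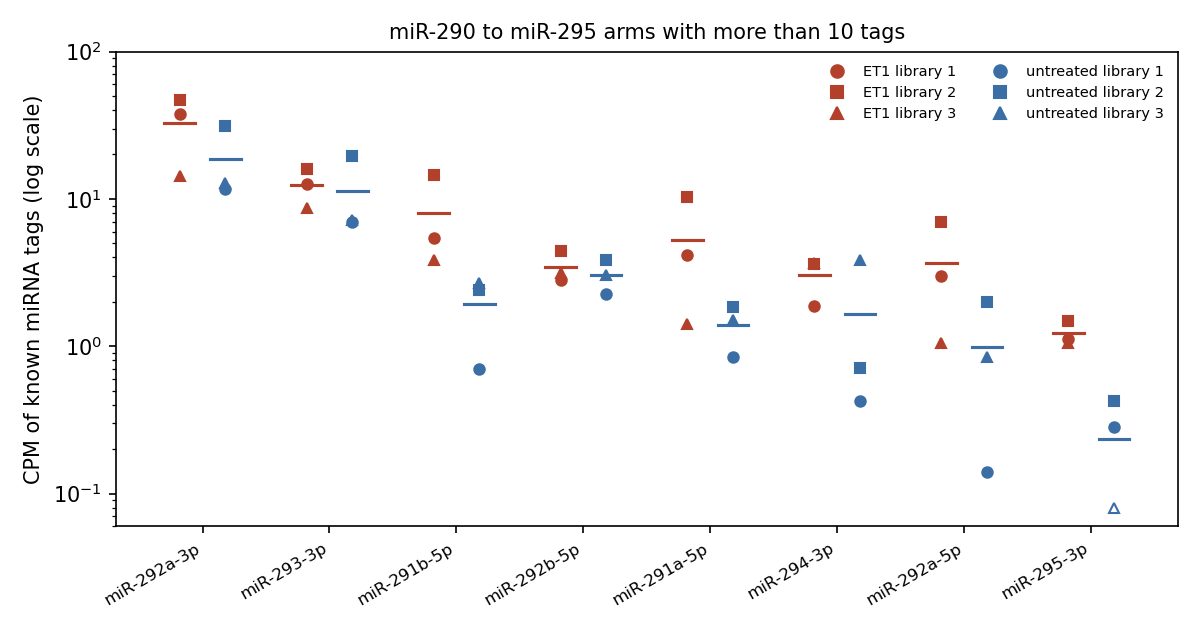
TMM-scaled CPM (log axis) of the 8 arms with more than 10 tags, 1 symbol per library, ET1 in red left of untreated in blue, with bars at the group means; the open symbol stands for 0 tags. Only miR-291b-5p and miR-295-3p have all ET1 symbols above all untreated ones, beside 12.5% of all tested miRNAs. miR-295-3p has few tags and was not tested.

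Tags fell on 1 arm of most hairpins, and which arm differed along the cluster. For miR-291a all 107 tags were 5p, and for miR-291b all 158. miR-291a-3p, one of the arms with the AAGUGCU seed shown above, thus had 0 of 107 tags of its hairpin, which allows a share of up to 2.80%, and miR-291b-3p had 0 of 158, which allows up to 1.90%. An arm at 0 in all 6 libraries has an upper limit of 0.0814 tags per 1000000 known miRNA tags. These limits cover counting error only.

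The 3 hairpins at the downstream end had almost all their tags on the 3p arm. All 79 tags of miR-294 were 3p, so that 0 tags of miR-294-5p allow a share of up to 3.80%. miR-293 had 422 tags on the 3p arm and 1 on the 5p arm, and miR-295 had 24 and 1. miR-292a lies between miR-291a and miR-291b, so the arm used did not switch once along the cluster. It gave both arms but mostly 3p, with 882 tags of 3p and 75 of 5p, a 5p share of 7.84% (95% Wilson interval 6.30% to 9.71%). miR-290a had 6 tags of 5p and 2 of 3p, too few to give an arm preference. The minus-strand miR-290b had 2 tags of 3p and 1 of 5p.

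**Figure D2:**
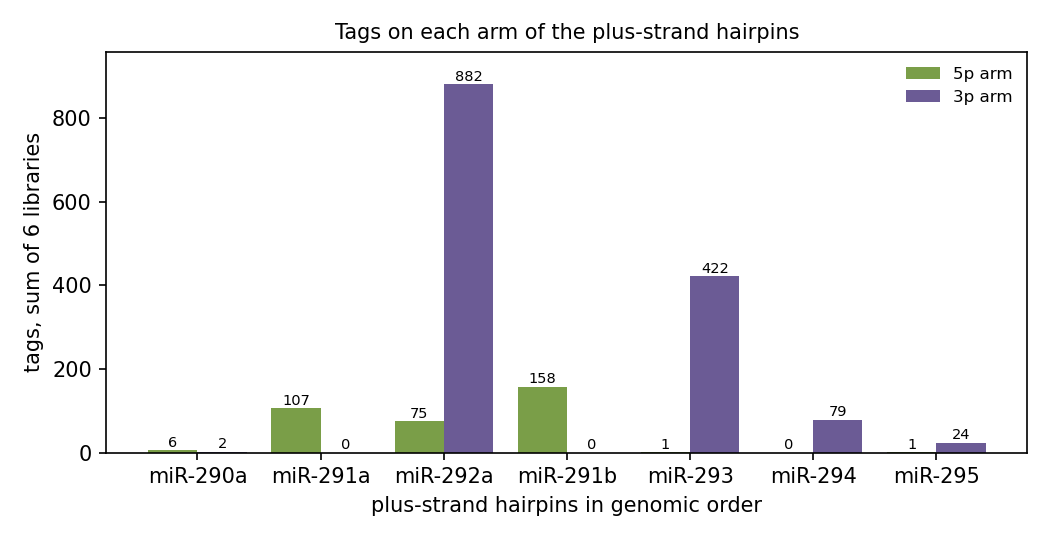
Tags on the 5p arm (green) and the 3p arm (purple) of the 7 plus-strand hairpins in genomic order, summed over the 6 libraries. miR-291a and miR-291b have tags on the 5p arm alone, miR-293, miR-294 and miR-295 almost all on the 3p arm, and miR-292a on both but mostly the 3p arm.

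By seed, the AAGUGCU arms held 103 tags, of which miR-294-3p gave 79 and miR-295-3p the other 24. They had 16, 24 and 27 tags in ET1 libraries against 5, 8 and 23 in untreated libraries. In CPM this was 3.01, 5.07 and 4.74 in ET1 libraries against 0.705, 1.13 and 3.86 in untreated libraries, with untreated library 3 inside the ET1 range. The AUCAAAG pair, miR-291a-5p with miR-291b-5p, had 51, 118 and 30 tags in ET1 libraries against 11, 30 and 25 in untreated libraries. Its summed level was 9.58, 24.9 and 5.27 CPM in ET1 libraries against 1.55, 4.25 and 4.19 CPM in untreated libraries, with no overlap, but the lowest ET1 and the highest untreated libraries were close. Of all tested miRNAs, 12.5% were higher in ET1 without overlap. The CUCAAAC arms had 17, 34 and 8 tags in ET1 libraries against 1, 16 and 6 in untreated libraries, and overlapped.

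The effect of ET1 was tested across all known miRNAs, and none of the 5 cluster arms that passed the filter was called. In edgeR's quasi-likelihood test with Benjamini-Hochberg adjustment over 616 miRNAs, 0 of 5 arms passed an adjusted p of 0.05, beside 1.79% of all miRNAs tested (1.3% higher and 0.487% lower in ET1). At an unadjusted p under 0.05 there was 1 of 5, miR-291b-5p, beside 18.3% of all (9.42% higher in ET1). DESeq2 and limma-voom called 0 of the 5 as well, beside 3.9% and 1.62% of all miRNAs called higher in ET1. All 5 log2 fold changes were above 0, with a median of 0.83, beside 50.5% of all miRNAs above 0 and a median of 0.0058. An arm could pass the expression filter through the 3 ET1 libraries alone, and miR-294-3p had only 3, 5 and 23 tags in untreated libraries. The shared sign of the 5 arms is therefore a description and carries no test. With library sizes alone the median of all miRNAs moved to 0.37, and with all small RNA rows fitted together to −0.46, where miR-293-3p and miR-292b-5p were below 0. The other 12 arms did not pass the filter, which asks for a minimum level in at least 3 libraries; among them was miR-291a-5p, which had more tags in all (107) than the tested miR-294-3p (79) but in fewer libraries above that minimum. Beside the cluster, 10 of the 13 germ cell and spermatogenic miRNAs were tested and none was called. Of these, 8 had a log2 fold change above 0, with a median of 0.67 (9 and 1.06 with library sizes alone, 5 and 0.16 with all small RNA rows fitted together). In that list miR-449a-5p averaged 183 ± 158 CPM in ET1 libraries against 46.1 ± 10.6 CPM in untreated libraries, and miR-34b-5p 34.4 ± 14.9 CPM in ET1 libraries against 11.4 ± 4.41 CPM in untreated libraries (SD, n = 3 each). Both were higher in ET1 without overlap, as were 12.5% of all tested miRNAs, and both were singled out after their values were seen. The groups overlapped for every other tested miRNA of the list. Among these, miR-741-3p (−0.56) and miR-743a-3p (−0.26) had a log2 fold change below 0, and the most abundant, miR-470-5p, had 0.039.

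miR-291b-5p, one of the pair with the AUCAAAG seed, had 29, 69 and 22 tags in ET1 libraries against 5, 17 and 16 in untreated libraries. Its mean was 7.96 ± 5.78 CPM in ET1 libraries against 1.93 ± 1.07 CPM in untreated libraries (SD, n = 3 each), and the groups did not overlap; 12.5% of all tested miRNAs were likewise higher in ET1 without overlap. The log2 fold change was 2.03 (SE 0.65; edgeR adjusted p = 0.10). It was 1.25 without ET1 library 2, which held the most tags. It passed with library sizes alone (log2 fold change 2.37, edgeR adjusted p = 0.046), where 6.17% of all miRNAs were called higher, and without a filter (2.0008, edgeR adjusted p = 0.036), where 1.61% were. Both lie within a range of adjusted p of 0.036 to 0.86 over 13 alternatives. Its near-identical partner miR-291a-5p had 22, 49 and 8 tags in ET1 libraries against 6, 13 and 9 in untreated libraries and overlapped. It was not tested in the fit above; with no filter its log2 fold change was 1.85 (edgeR adjusted p = 0.092).

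miR-292a-3p had 199, 223 and 81 tags in ET1 libraries against 83, 220 and 76 in untreated libraries. It averaged 32.9 ± 16.9 CPM in ET1 libraries against 18.5 ± 10.9 CPM in untreated libraries (SD, n = 3 each). ET1 library 3 and untreated library 2 stood apart from their groups, in opposite directions, and the groups overlapped. The log2 fold change was 0.83 (SE 0.56; edgeR adjusted p = 0.47), or 0.45 without ET1 library 2 and 1.43 without untreated library 2.

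miR-293-3p had 67, 75 and 49 tags in ET1 libraries against 49, 139 and 43 in untreated libraries, with means of 12.3 ± 3.63 CPM in ET1 libraries against 11.3 ± 7.29 CPM in untreated libraries (SD, n = 3 each). Untreated library 2 was the highest of all 6. The log2 fold change of 0.13 (SE 0.51; edgeR adjusted p = 0.93) had no stable sign: it was −0.12 without ET1 library 2, −0.10 without untreated library 1, −0.076 without untreated library 3 and 0.80 without untreated library 2.

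miR-294-3p, known in mouse embryonic stem cells for promoting the G1 to S passage, had 10, 17 and 21 tags in ET1 libraries against 3, 5 and 23 in untreated libraries. It averaged 3.05 ± 1.02 CPM in ET1 libraries against 1.66 ± 1.91 CPM in untreated libraries (SD, n = 3 each), and the highest level of all was in untreated library 3. The log2 fold change was 0.90 (SE 0.78; edgeR adjusted p = 0.58), or 2.41 without untreated library 3 and 0.43 without untreated library 1. miR-295-3p, of the same seed, had 6, 7 and 6 tags in ET1 libraries against 2, 3 and 0 in untreated libraries. Its groups did not overlap, averaging 1.22 ± 0.228 CPM in ET1 libraries against 0.236 ± 0.216 CPM in untreated libraries (SD, n = 3 each), but it was below the filter and untested, and at these counts a few tags set the difference. Among tested miRNAs, 12.5% were higher in ET1 without overlap.

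miR-292b-5p, on the opposite strand, had 15, 21 and 18 tags in ET1 libraries against 16, 27 and 18 in untreated libraries. Its level varied little between libraries and groups, averaging 3.47 ± 0.854 CPM in ET1 libraries against 3.03 ± 0.784 CPM in untreated libraries (SD, n = 3 each), with a log2 fold change of 0.19 (SE 0.53; edgeR adjusted p = 0.88), or −0.047 without ET1 library 2.

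**Figure D3:**
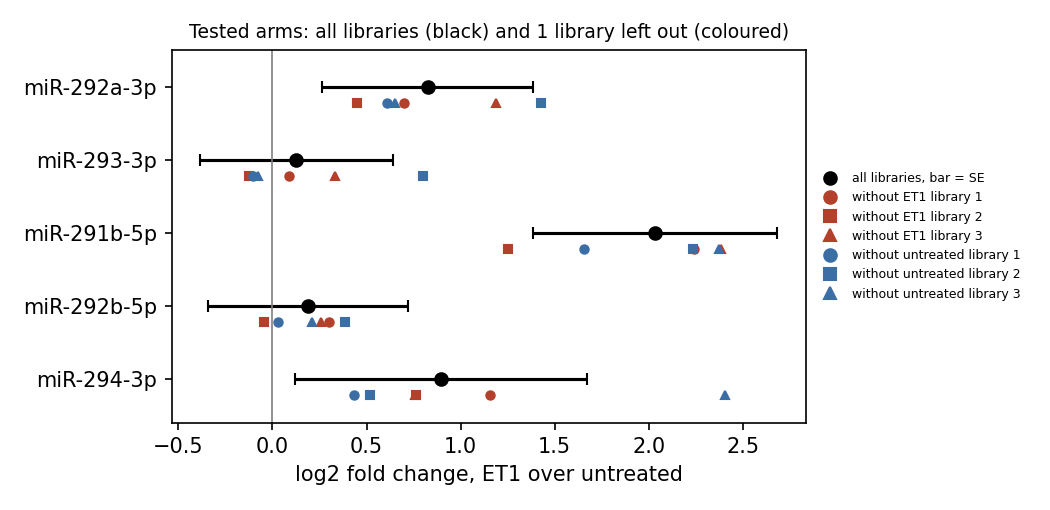
Log2 fold change (ET1 over untreated, horizontal axis) of the 5 tested arms, with all libraries in black (bar, SE) and with each library left out in red (ET1) or blue (untreated). miR-291b-5p stays between 1.25 and 2.39, while miR-293-3p and miR-292b-5p fall on both sides of 0.

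The balance within the cluster does not depend on scaling. The 5p share of miR-292a was 7.44%, 12.9% and 6.90% in ET1 libraries against 1.19%, 5.98% and 6.17% in untreated libraries, with means of 9.08% ± 3.31 in ET1 and 4.45% ± 2.82 in untreated libraries (SD, n = 3 each). The groups did not overlap, but the nearest libraries were close, and the 95% Wilson intervals of ET1 library 3 (3.20% to 14.2%) and untreated library 3 (2.67% to 13.6%) nearly coincided. The exact two-sided permutation p was 0.1, the smallest that 3 libraries against 3 allow (adjusted 0.3 over 3 quantities). The 3 quantities were this share, the 5p share of the whole cluster and the ratio of miR-292a-3p to miR-293-3p. They were chosen after their values were seen, and neither the p-values nor the adjustment account for that choice. The difference of 4.63 points was 2.72 without ET1 library 2 and 2.998 without untreated library 1. Over the whole cluster the 5p arms took 22.9%, 34.7% and 26.3% of the tags in ET1 libraries against 17.5%, 16.6% and 25.7% in untreated libraries (exact permutation p = 0.2, adjusted 0.3), a difference of 8.07 points, or 4.68 without ET1 library 2. These shares include miR-292b-5p, whose tags could not be assigned to its hairpin alone. It took 4.09%, 4.22% and 8.45% of cluster tags in ET1 libraries against 9.64%, 6.14% and 9.42% in untreated libraries. The overlap and the p-value depend on counting it, and the share without it was not tested.

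The ratio of miR-292a-3p to miR-293-3p was 2.97, 2.97 and 1.65 in ET1 libraries against 1.69, 1.58 and 1.77 in untreated libraries (exact permutation p = 0.3, adjusted 0.3). ET1 library 3 sat with the untreated libraries. miR-294-3p took 2.72%, 3.41% and 9.86% of the cluster's tags in ET1 libraries against 1.81%, 1.14% and 12.04% in untreated libraries. The share was highest in library 3 of each group, a description of these libraries with no test. The labels do not say what a replicate number stands for. This share was singled out after its values were seen.

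**Figure D4:**
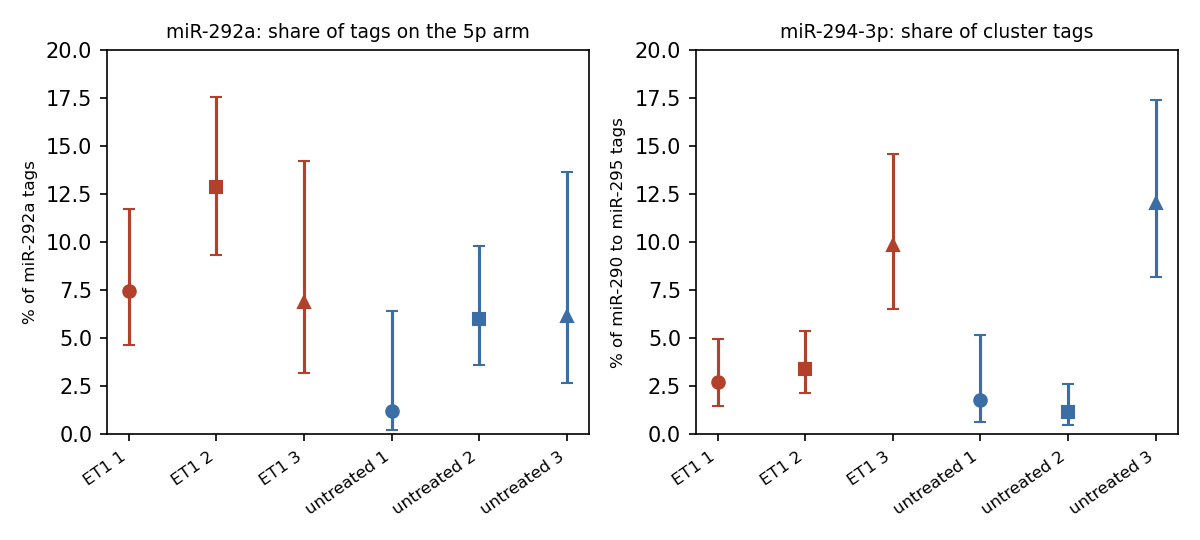
Left, percent of miR-292a tags on the 5p arm; right, miR-294-3p as a percent of all tags of the cluster; 1 point per library, ET1 in red and untreated in blue, with 95% Wilson intervals, which cover counting error only. On the left all ET1 points lie above the untreated ones. Between the groups the intervals overlap in every pair but ET1 library 2 with untreated library 1. On the right both libraries numbered 3 stand above the others.

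In the authors' deposited table, which compares tags pooled over the 3 libraries of a group, 8 of the 9 cluster arms with a q-value were called higher in ET1 (q under 0.05), beside 48% of all known miRNAs with a q-value in that table. In the authors' deposited table miR-292a-3p had a log2 ratio of 1.10 (q = 2.24e-30) and miR-291b-5p one of 2.36 (q = 7.32e-22). For miR-293-3p the authors' deposited table gave 191 pooled tags in ET1 and 231 in untreated cells with a log2 ratio of 0.42, and for miR-292b-5p 54 in ET1 and 61 in untreated cells with 0.52. In all 1257 rows of the authors' deposited table with both values, the log2 of the pooled tags was below the deposited ratio by a constant, with a difference of −0.70. Pooled tags carry no term for the spread between libraries.

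Other miRNAs with a related seed were read beside the cluster. Among the 1340 known miRNA rows with a RefSeq mature sequence, 3 outside the cluster shared bases 2 to 7 with one of its arms, all through AAGUGC. Of these, 1 was tested, miR-350-5p, and it was not called, beside 1.79% of all miRNAs tested. It has the seed AAGUGCA of miR-291b-3p and had a level of 40.03 ± 12.9 CPM in ET1 libraries against 22.9 ± 6.09 CPM in untreated libraries (SD, n = 3 each; log2 fold change 0.81, SE 0.46; edgeR adjusted p = 0.37), above every arm of the cluster by mean level. miR-302d-3p and miR-302b-3p had 13 and 2 tags over the 6 libraries and were not tested. They belong to the miR-302 and miR-367 cluster, the other miRNA locus of pluripotent cells, of which 4 rows were listed, each with a tag, summing to 0 to 1.06 CPM in ET1 libraries against 0.168 to 1.42 CPM in untreated libraries. Of the miR-17 type family, proliferation-linked miRNAs whose seed holds the same core shifted by a base, 4 of 6 were tested, 1 was above 0, none was called, and the median log2 fold change was −0.38 (−0.0071 with library sizes alone, −0.89 with all small RNA rows fitted together). Its most abundant member miR-93-5p averaged 1472 ± 363 CPM in ET1 libraries against 1931 ± 370 CPM in untreated libraries (SD, n = 3 each; edgeR adjusted p = 0.58).

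The miRNAs whose levels followed the cluster most closely over the 6 libraries were sought among 397 tested miRNAs with a mean of at least 10 CPM. Likeness was the mean absolute difference of log2 CPM, each centred on its own mean. For miR-293-3p the nearest were miR-742-3p (0.11), miR-466n-5p (0.195), miR-743a-3p (0.26), miR-3068-5p (0.27) and miR-470-5p (0.27), with a median of 0.66 over all candidates. Each of these 5 was nearer to miR-293-3p than its cluster neighbour miR-292a-3p (0.37), which was itself below the median. The 5 were picked as the smallest of 397 distances, while miR-292a-3p is 1 fixed arm, so this comparison favours them. The candidates left out the arms of the cluster. For miR-292a-3p, whose distance from miR-293-3p was the same 0.37, each candidate lay farther off, and the nearest were miR-184-3p (0.38), miR-296-5p (0.42), miR-742-3p (0.43), miR-466n-5p (0.45) and miR-3068-5p (0.47), with a median of 0.84 over the candidates. miR-742-3p itself averaged 82.8 ± 18.7 CPM in ET1 libraries against 76.7 ± 48.8 CPM in untreated libraries (SD, n = 3 each). Each distance sets 2 miRNAs side by side in the same 6 libraries, 3 of each group and of unequal depth, and carries no test.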

How the data were processed

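Per the file headers, the authors deposited raw tag counts per small RNA row and library, and a value headed TPM that is, from the values, an RPM (tags scaled to all rows of the library, 0 written as 0.001) and was not tested. Bowtie2 and mm10 are named per the submitters' processing notes; neither the annotation databases nor the rules on mismatches and multi-mapping tags are stated. The authors' deposited comparison table gives pooled counts, a log2 ratio, p-values and q-values, with no settings. Of the 61628 rows, 4 name no small RNA (exon, intron, intergenic, repeat; 44.3% to 61.4% of tags) and entered no fit. Known miRNA tags numbered 4381927 to 8651018 per library, and counting error is largest for the rare arms of the cluster. How counting and the spread between libraries divide for each arm was not tested.

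The 1573 known miRNA rows were fitted with edgeR 4.0.16 in R 4.3.3 (TMM, default filter by group, robust quasi-likelihood, two-sided, threshold 0.05), and the SE was taken from the F statistic. Ratios of tags were compared by exact permutation (scipy 1.17.1), over 3 quantities chosen after their values were seen. Alternatives were DESeq2 1.42.0, limma-voom (limma 3.58.1), 2 other scalings, 2 other filters, the miRNA share as a covariate, a replicate block and leaving out each library. All members were named, with the 3 most abundant miRNAs sharing bases 2 to 7 with a member, 2 related families, and the 5 nearest by pattern to each of the 2 most abundant members. The members and lists were chosen with earlier results of these data known. No library repeated another of its group: chi-square over degrees of freedom ran from 336 to 1212 for such pairs.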

Additional observations from a re-analysis of the deposited data

How the results depend on the processing

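The number of cluster arms called was 0 in the fit with all libraries, 1 (miR-291b-5p) with library sizes alone and without a filter, and 0 in the other alternatives, the 6 without 1 library included. The number of known miRNAs called, 11 with all libraries, was 39 in DESeq2, 41 with library sizes alone, 37 without a filter, 0 with all small RNA rows fitted together and 0 with the miRNA share as a covariate (116 and 39 at an unadjusted p under 0.05), and ran from 2 (without ET1 library 3) to 30 (without ET1 library 1) with 1 library left out, leaving out ET1 library 2 giving 9 and leaving out untreated libraries 1, 2 and 3 in turn giving 11, 5 and 25. With the replicate block it was 21 and no cluster arm was called. The numbers were not taken as pairs: deviations of same-numbered libraries correlated at 0.28, 0.060 and 0.25, each library correlating best with its own number, as a hint from the data. The share of the cluster was higher in ET1 libraries by 45.1 per 1000000 known miRNA tags (27.7 to 62.5 with 1 library left out) and by 5.49 per 1000000 of all tags. The sign was reversed with all small RNA rows fitted together for miR-292b-5p (−0.29) and miR-293-3p (−0.44), and with the covariate for miR-294-3p (−1.15). With 1 library left out miR-292b-5p ran from −0.047 to 0.39 and miR-293-3p from −0.12 to 0.80, while miR-291b-5p (1.25 to 2.39), miR-292a-3p (0.45 to 1.43) and miR-294-3p (0.43 to 2.41) kept their sign. The cause was not tested. Depth limits the 9 arms with 10 tags or fewer.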
